A study of Homo sapiens with 6 samples.

Results

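The genes described here are the heat shock and chaperone genes: the protein-coding genes of chromosomes 1 to 22 whose RefSeq symbol marks an HSP70, HSP110, HSP90, HSP60 or HSP10 gene, a CCT chaperonin subunit, a small heat shock protein, a DNAJ protein, a heat shock factor or a BAG co-chaperone. The rule took 93 of 19126 genes by symbol alone, with no measured value. It also took a pair of readthrough genes, HSPE1-MOB4 and DNAJC25-GNG10, which share their first end with HSPE1 and DNAJC25, and HSF2BP, a binding partner of HSF2. By class, 12 were HSP70 genes, 3 HSP110, 3 HSP90, 12 chaperonins, 7 small heat shock proteins, 4 DNAJA, 12 DNAJB, 29 DNAJC, 5 of the HSF group and 6 BAG genes.

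Chromatin accessibility was measured in GM12878, an established human lymphoblastoid (B cell) line, in 6 libraries from 3 groups of 2. The high and low groups were cells fixed with paraformaldehyde, stained inside the cell for the histone mark H3K27ac and sorted for high or low signal. Their crosslinks were reversed after transposition by Tn5 (the InTAC-seq method), while the live group was unsorted cells whose DNA was purified straight after transposition. All replicates held 50000 cells, and the sorted replicates were aliquots of sorted cells, so p-values measure the spread between aliquots, which may be technical. The labels name no heat shock, drug or difference of genotype, and all groups are cells of a single line. Fixing, staining, sorting and crosslink reversal all separate the sorted libraries from the live ones and cannot be told apart.

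Chaperones bind unfolded proteins and help them to fold, refold or be degraded. HSP70 proteins work through cycles of ATP that DNAJ proteins start and that BAG and HSP110 proteins end by releasing the nucleotide, HSP90 acts late on receptors and kinases, and the chaperonins enclose a protein in a chamber. Many are made at all times, others only on stress, when heat shock factors, HSF1 above all, bind heat shock elements in their promoters, while chaperones of the endoplasmic reticulum answer to unfolded protein there through a separate promoter element.

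Each library came as a list of summits, the single bases where a peak of accessibility is highest, with the peak caller's score. The lists held 25627 to 72284 regions after summits closer than 250 bp were joined, so the best 25627 of each were compared. Live 1 and live 2 held 69919 and 72284, high 1 and high 2 25627 and 46552, and low 1 and low 2 41828 and 51754. The sorted lists were thus all shorter than the live ones, and list length cannot be told apart from that comparison. High 1, the shortest list, sets the cutoff. A gene was called open in a library where such a region had its summit within 1000 bp of either gene end. A rank of 1 is the best-scored region of a library. With no read counts, depth is unknown, and a gene that is not open was not among the best regions, which does not show closed chromatin. As a check of the labelled cell line, 3 of 8 B cell genes were open in all 6 libraries (MS4A1, CD79B and EBF1), against 2 of 8 T and NK cell genes (CD3E and CD8A), 0 of 8 myeloid and 0 of 6 erythroid genes.

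Most chaperone genes had an open end in every library. Of the 93 genes, 64 (68.8%) were open in all 6 libraries, against 40.6% of all genes, and 18 (19.4%) were open in none, against 45% of all genes. The other 11 were open in 1 to 5 libraries. The 64 genes rested on 61 separate regions, because HSPD1, HSPE1 and HSPE1-MOB4 share a region, as do DNAJC25 and DNAJC25-GNG10. With all summits of every list in place of the best ones, 67 genes had an end summit in all 6 libraries, against 44% of all genes. RefSeq gives the position of the transcription start for 82 of the chaperone genes, and 60 of these were open within 1000 bp of it in all 6 libraries, against 43.1% of the 15101 genes with an entry. Of the 64 genes, 57 were open at that start in all 6 libraries, 6 had no entry, and the last, DNAJC8, had its best summits at its other end in all 6 libraries and an open start in low 1 and low 2 only.

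**Figure D1:**
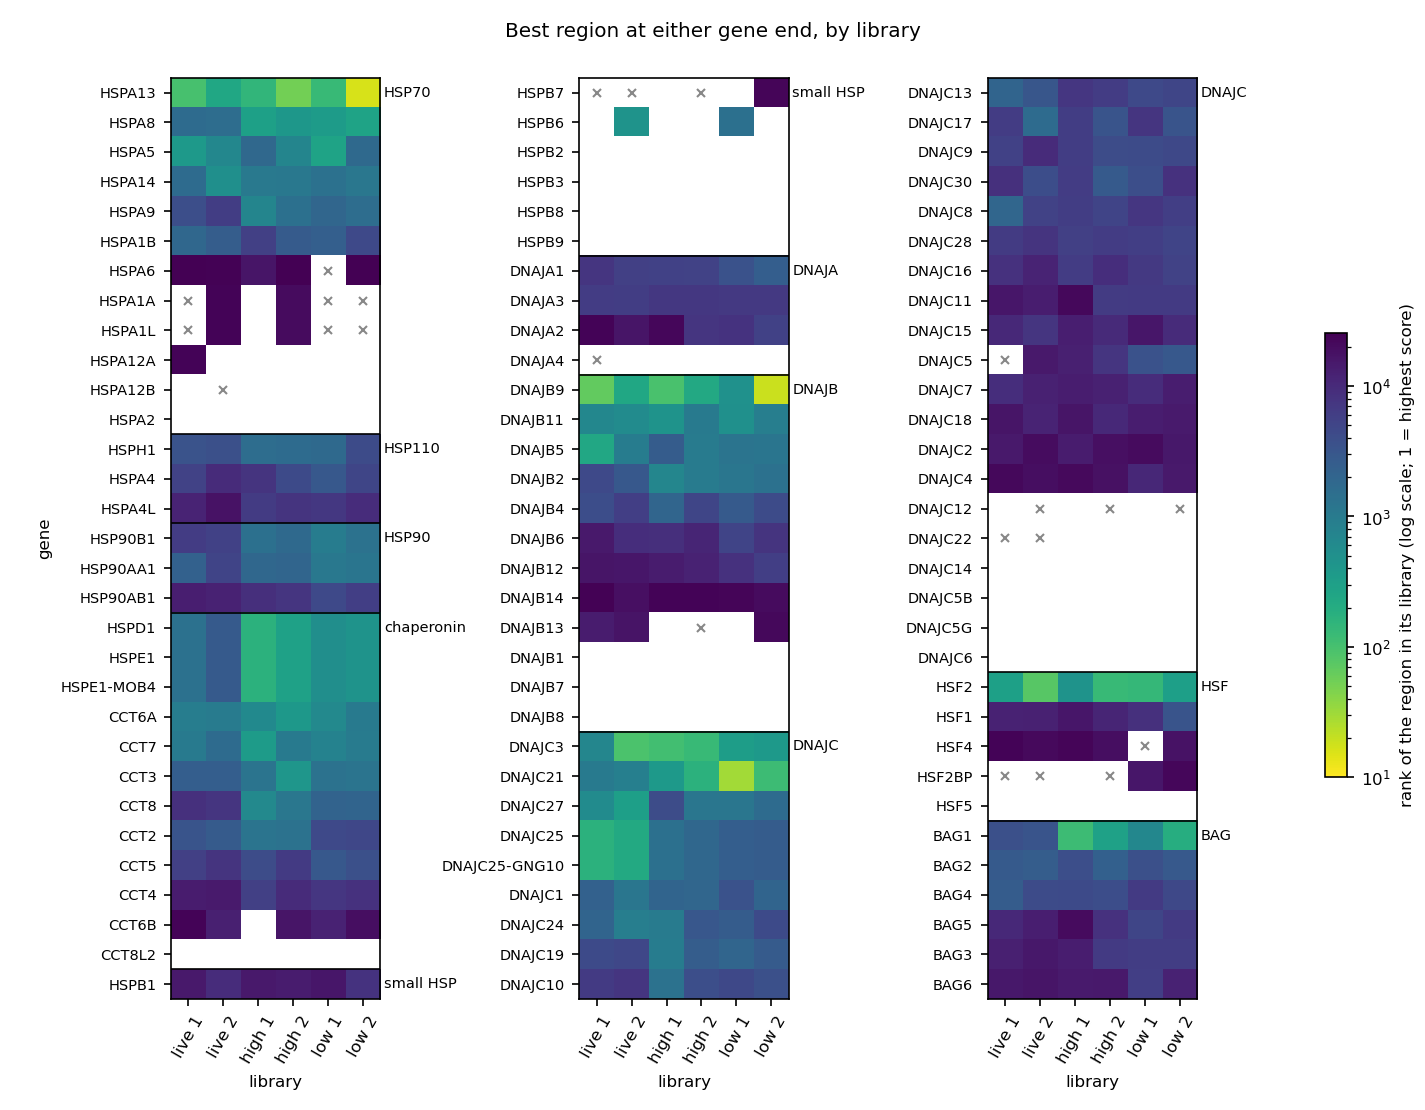
Rank of the best region within 1000 bp of either end of each of the 93 genes (vertical, by class) in the 6 libraries (horizontal), on a log colour scale in which yellow is the best rank. Crosses mark summits ranked below the best 25627 of a library and white marks no summit; the BAG, HSP90 and HSP110 genes are filled in every library, and most small heat shock genes are empty.

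The classes differed in how completely they were open. All 6 BAG, all 3 HSP90 and all 3 HSP110 genes were open in all 6 libraries. So were 10 of 12 chaperonins, 22 of 29 DNAJC, 8 of 12 DNAJB and 3 of 4 DNAJA genes. Of the 12 HSP70 genes 6 were open throughout, of the 5 HSF genes 2, and of the 7 small heat shock genes only HSPB1, which guards actin and unfolding proteins. These are counts over small classes, and the differences between classes were not tested.

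**Figure D2:**
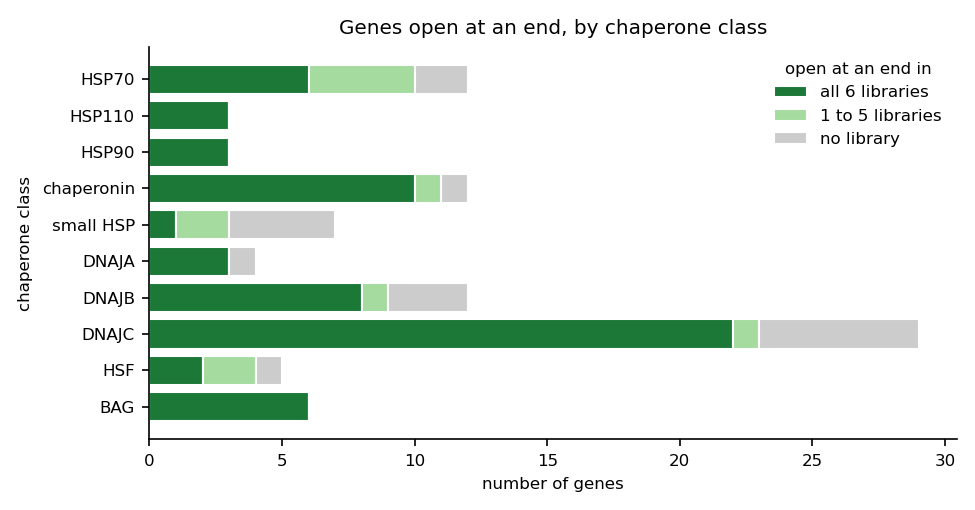
Number of genes (horizontal) of each chaperone class (vertical) that were open at an end in all 6 libraries, in 1 to 5 or in none. DNAJC is the largest class, with 22 of 29 genes open in all 6, and the small heat shock class has 1 of 7.

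A few promoter sequences show what the starts of chaperone genes hold. Not all of these starts were open throughout: that of HSPA6 was open in 5 libraries and that of HSPA1A in 2. The median HSPA1A summit lay at -710 bp, outside the bases printed. The heat shock element was searched as GAANNTTC or TTCNNGAA, and in a longer form with 3 units, GAANNTTC followed by NNGAA or TTCNNGAA followed by NNTTC. The other motifs searched were the CCAAT box, the endoplasmic reticulum stress element (CCAAT, 9 bases, CCACG, which therefore also counts as a CCAAT box), TATAAA and the GC box GGGCGG, each on both strands of RefSeq's window from 250 bases before to 50 after the start. The sequences printed are from RefSeq, build GRCh38.p14, 5′ to 3′ in the direction of the gene, and end at the base before the start. Capitals mark heat shock elements, CCAAT boxes, stress elements and TATAAA in either orientation. The first set holds the genes with the 3-unit heat shock element upstream of the start: HSPA8, the constitutive HSP70 of the cytosol, HSPA6, a strictly stress-induced HSP70, and DNAJB6, which keeps aggregation-prone proteins soluble.
HSPA8 (chr11:123062137-123062386, minus strand): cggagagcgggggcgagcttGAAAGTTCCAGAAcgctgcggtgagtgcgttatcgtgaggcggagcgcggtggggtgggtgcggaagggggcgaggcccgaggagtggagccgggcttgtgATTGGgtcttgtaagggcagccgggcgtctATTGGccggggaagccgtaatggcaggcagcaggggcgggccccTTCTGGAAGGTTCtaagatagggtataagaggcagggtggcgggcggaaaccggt
HSPA6 (chr1:161524290-161524539, plus strand): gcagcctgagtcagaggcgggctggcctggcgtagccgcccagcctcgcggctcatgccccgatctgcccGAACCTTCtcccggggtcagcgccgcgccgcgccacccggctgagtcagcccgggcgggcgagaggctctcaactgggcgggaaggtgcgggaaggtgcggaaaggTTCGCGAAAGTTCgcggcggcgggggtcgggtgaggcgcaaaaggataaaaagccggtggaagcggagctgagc
DNAJB6 (chr7:157336754-157337003, plus strand): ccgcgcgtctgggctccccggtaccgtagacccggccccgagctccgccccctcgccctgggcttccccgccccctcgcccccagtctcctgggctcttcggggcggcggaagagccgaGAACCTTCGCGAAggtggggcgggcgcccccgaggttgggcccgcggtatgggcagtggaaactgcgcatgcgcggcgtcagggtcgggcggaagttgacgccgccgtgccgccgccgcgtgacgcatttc
The 3-unit form was found in 4 of the 82 chaperone windows (4.88%), these 3 and DNAJA1, where it lies just after the start, and in 0.371% of all 15101 windows. HSPA8 held it 2 times, at -230 to -218 and at -55 to -43 from the start.

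The second set holds the only chaperone genes of the rule with the stress element, HSPA5 (BiP) and HSP90B1 (GRP94), the HSP70 and HSP90 proteins of the endoplasmic reticulum.
HSPA5 (chr9:125241344-125241593, minus strand): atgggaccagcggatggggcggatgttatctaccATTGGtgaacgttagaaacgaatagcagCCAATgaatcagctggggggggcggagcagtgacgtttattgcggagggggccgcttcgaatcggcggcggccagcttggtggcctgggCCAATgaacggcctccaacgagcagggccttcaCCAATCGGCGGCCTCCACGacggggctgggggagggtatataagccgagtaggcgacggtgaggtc
HSP90B1 (chr12:103930160-103930409, plus strand): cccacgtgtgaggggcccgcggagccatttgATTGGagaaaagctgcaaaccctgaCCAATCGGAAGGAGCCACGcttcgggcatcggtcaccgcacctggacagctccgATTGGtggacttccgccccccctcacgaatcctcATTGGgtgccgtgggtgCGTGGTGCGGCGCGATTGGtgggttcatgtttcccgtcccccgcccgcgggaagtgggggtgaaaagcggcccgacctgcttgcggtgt
The element begins at -66 in HSPA5 and at -194 and -89 in HSP90B1, the last on the other strand. It was found in 2 of 82 chaperone windows (2.44%) and in 18 of 15101 windows in all (0.119%). Both starts were open in all 6 libraries. At HSPA5 the summits lay at -93, -202, -187, -159, -160 and -160 bp from the start in live 1, live 2, high 1, high 2, low 1 and low 2, and at HSP90B1 at -79, -79, -128, -208, -153 and -117 bp. The summits of HSP90B1 thus spread over the stretch that holds both of its elements, and those of HSPA5 lay upstream of its element.

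The third set is the pair of near-identical stress-induced HSP70 genes, HSPA1A and HSPA1B.
HSPA1A (chr6:31815293-31815542, plus strand): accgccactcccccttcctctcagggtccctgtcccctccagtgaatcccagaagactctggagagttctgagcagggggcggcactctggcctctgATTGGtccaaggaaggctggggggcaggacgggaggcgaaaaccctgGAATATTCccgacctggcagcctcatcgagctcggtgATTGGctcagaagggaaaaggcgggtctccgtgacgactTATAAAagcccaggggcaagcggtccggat
HSPA1B (chr6:31827488-31827737, plus strand): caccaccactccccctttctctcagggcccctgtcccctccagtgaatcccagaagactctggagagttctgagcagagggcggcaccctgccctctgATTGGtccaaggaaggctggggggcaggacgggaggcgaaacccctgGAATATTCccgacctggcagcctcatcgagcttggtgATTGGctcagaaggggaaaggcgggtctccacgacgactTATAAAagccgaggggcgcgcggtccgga
Set against each other at their best ungapped shift, the full windows matched at 277 of 299 bases (92.6%), with the same heat shock element, CCAAT boxes and TATAAA box 1 base apart. How the submitters' alignment treated reads that fit both genes is not given in the sources used here, so the values of HSPA1A and HSPA1B are uncertain.

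The shorter heat shock element was found in 17 chaperone windows (20.7%), against 11.3% of all windows. It was in 6 of 10 HSP70 windows and in 4 of 6 small heat shock windows, but in 1 of 25 DNAJC windows. By openness, it was in 9 of the 60 windows whose start was open in all 6 libraries (15%), in 5 of 9 open in 1 to 5 (55.6%) and in 3 of 13 open in none (23.1%). HSPA1L and HSPA1A, both among those 9, have overlapping windows, and the same element was counted in each. The GC box was in 46 of the 60 always-open windows (76.7%) and in 2 of the 13 never-open ones (15.4%), with 58.9% over all genes. The median number of CpG pairs was 25 and 13 in the same groups, and 22 over all genes. A match describes letters and not a bound site, and these shares were not tested.

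Among the HSP70 genes, HSPA13, a microsomal HSP70, had the best median rank of the class. Its ranks were 98 and 239 in live 1 and 2, 146 and 53 in high 1 and 2, and 128 and 16 in low 1 and 2, so the groups overlapped. HSPA8 ranked 1628 and 1565 in live, 295 and 398 in high, and 347 and 274 in low, and all 4 sorted libraries lay ahead of both live ones. HSPA9 (mortalin), the mitochondrial HSP70, ranked 3865 and 6167 in live, 718 and 1419 in high and 1935 and 1552 in low, again with the live libraries last. HSPA5 ranked 376 and 670 in live, 1780 and 719 in high and 271 and 1769 in low, so that sorted and live libraries overlapped. HSPA14 was open in all 6 libraries as well.

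The HSP70 genes of stress and of testis were uneven. HSPA1B ranked 1859 and 2525 in live, 5772 and 2683 in high and 2362 and 4474 in low, and was open throughout. HSPA1A and HSPA1L, a testis HSP70 read from the opposite strand next to it, share weak best summits. These ranked 40095 and 23890 in live, were absent in high 1, and ranked 20080 in high 2, and 26746 and 34344 in low. They lay from -769 to 24 bp from the HSPA1A start, so they may not belong to a single region. Both genes were therefore open in 2 libraries only, 1 live and 1 high. HSPA6 was near the limit in most libraries, at 25484 and 24144 in live, 16189 and 24891 in high, and 26527 and 24976 in low, and counted as open in 5. HSPA2, a testis HSP70 whose RefSeq start lies inside its annotated span, had no end summit in any list but was open at that start in all 6 libraries, at 1636 and 941 in live, 1715 and 670 in high, and 4173 and 1187 in low. HSPA12A was open at an end in 1 library and HSPA12B in none.

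The HSP110 genes, nucleotide release factors for HSP70, were led by HSPH1, which ranked 3471 and 3716 in live, 1533 and 1647 in high, and 1736 and 4288 in low. Median ranks of HSPA4 and HSPA4L were 5163 and 8644.5. Of the HSP90 genes, HSP90AA1, the stress-inducible cytosolic form, ranked 2261 and 5190 in live, 1850 and 1989 in high, and 1092 and 1214 in low. HSP90AB1, the constitutive cytosolic form, ranked 13237 and 12073 in live, 8992 and 7676 in high, and 4590 and 5885 in low. HSP90B1 ranked 6350 and 5597 in live, 1409 and 1775 in high, and 961 and 1328 in low. At all 3 HSP90 genes each sorted library ranked ahead of both live ones, a pattern of 19% of the 8406 genes tested below. Only HSP90B1 among them passed that test.

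Among the chaperonins, HSPD1 (HSP60) and HSPE1 (HSP10), the mitochondrial chamber and its lid, are read in opposite directions from starts on chromosome 2 at 197500274 and 197500379. Their shared region ranked 1357 and 2736 in live, 165 and 283 in high, and 534 and 453 in low. The 8 genes for subunits of the cytosolic chamber TRiC that the symbol rule takes, CCT6B of testis included, ranged in median rank from 769 (CCT6A) to 17656.5 (CCT6B). CCT8 ranked 8511 and 7721 in live, 640 and 1131 in high, and 2086 and 2070 in low. CCT6B was open in all but high 1, and CCT8L2, a testis gene, had no end summit in any list.

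Of the DNAJ genes, DNAJB9 (ERdj4), a protein of the endoplasmic reticulum, had the best median rank. It ranked 65 and 240 in live, 94 and 223 in high, and 485 and 19 in low. DNAJC3 (p58IPK) ranked 699 and 93, 107 and 129, and 328 and 379 in the same order, and DNAJB11 (ERdj3) 685 and 583, 456 and 1055, and 493 and 898. At none of these did the sorted libraries separate from the live ones. DNAJC21, a ribosome biogenesis factor, ranked 1031 and 864 in live, 368 and 164 in high, and 30 and 119 in low. DNAJC25 ranked 167 and 216 in live, 1420 and 1839 in high, and 2476 and 2621 in low, with the live libraries ahead. DNAJB5 and DNAJC27 had median ranks of 1101.5 and 1177. DNAJA1, DNAJA3 and DNAJA2 had median ranks of 5529.5, 6938.5 and 12202.5, and DNAJA4 was open in no library.

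DNAJB1, the stress-induced partner of HSP70, had no end summit in any list because its annotated span runs 45623 bp and its RefSeq start lies inside it. At that start it ranked 597 and 480 in live, 1473 and 1236 in high, and 275 and 825 in low. The start of TECR, read the other way, lies nearer to the summits, at a median distance of 129.5 bp against 193.5 bp for DNAJB1. DNAJC14 was likewise open at its RefSeq start in all 6 libraries with no end summit. With these starts counted beside gene ends, 67 of the 93 genes were open in all 6 libraries, against 42.2% of all genes. The genes with no end summit in any list were DNAJB1, DNAJB7, DNAJB8, DNAJC14, DNAJC5B, DNAJC5G, DNAJC6, HSF5, HSPA2, CCT8L2, HSPB2, HSPB3, HSPB8 and HSPB9.

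HSF2, a heat shock factor of development and proteotoxic stress, ranked 293 and 77 in live, 460 and 130 in high, and 138 and 302 in low. HSF1, the main factor of the heat shock response, ranked 12132 and 12341 in live, 15951 and 11486 in high, and 8712 and 3335 in low. HSF4, a lens factor, was open at an end in 5 libraries and HSF5 in none. No list held a summit within 1000 bp of the RefSeq start of HSF4. Of the BAG genes, BAG1, which binds HSP70 and BCL2, ranked 3827 and 3315 in live, 117 and 287 in high, and 683 and 193 in low. BAG3, the stress-induced BAG gene that steers clients to autophagy, ranked 12729 and 15534 in live, 13498 and 6666 in high, and 6211 and 6252 in low. BAG2 and BAG4 had median ranks of 2813.5 and 4328. In the small heat shock class, HSPB1 ranked 15189 and 9567 in live, 14935 and 14153 in high, and 15697 and 8093 in low. HSPB6 was open in live 2 and low 1 only, through summits 996 to 1000 bp from its start that lie by the start of PROSER3.

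The best summit lay close to the start. Among the 62 genes with a summit within 1000 bp of their RefSeq start in all 6 full lists, the median distance was 115 bp, 52 had their median summit upstream of the start, 51 lay within 250 bp and 5 beyond 500 bp. A gene's summits spanned a median of 111.5 bp over the 6 libraries, and its replicates were a median of 32 bp apart in live, 27 bp in high and 22 bp in low. CCT8 was among the tightest, with summits from -110 to -87 bp, while HSP90AB1 was open 775 to 867 bp downstream of its start in every library. The summits of CCT7 lay at -958 to -917 bp, a median of 87 bp from the start of PRADC1. In all, 15 of the 62 genes had their median summit nearer to another gene's start than to their own, and 20 of the 82 (24.4%) had a coding gene starting within 1000 bp in the opposite direction, against 12.7% of genes with an entry. At these genes the summits do not tell which of the neighbours a region serves.

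**Figure D3:**
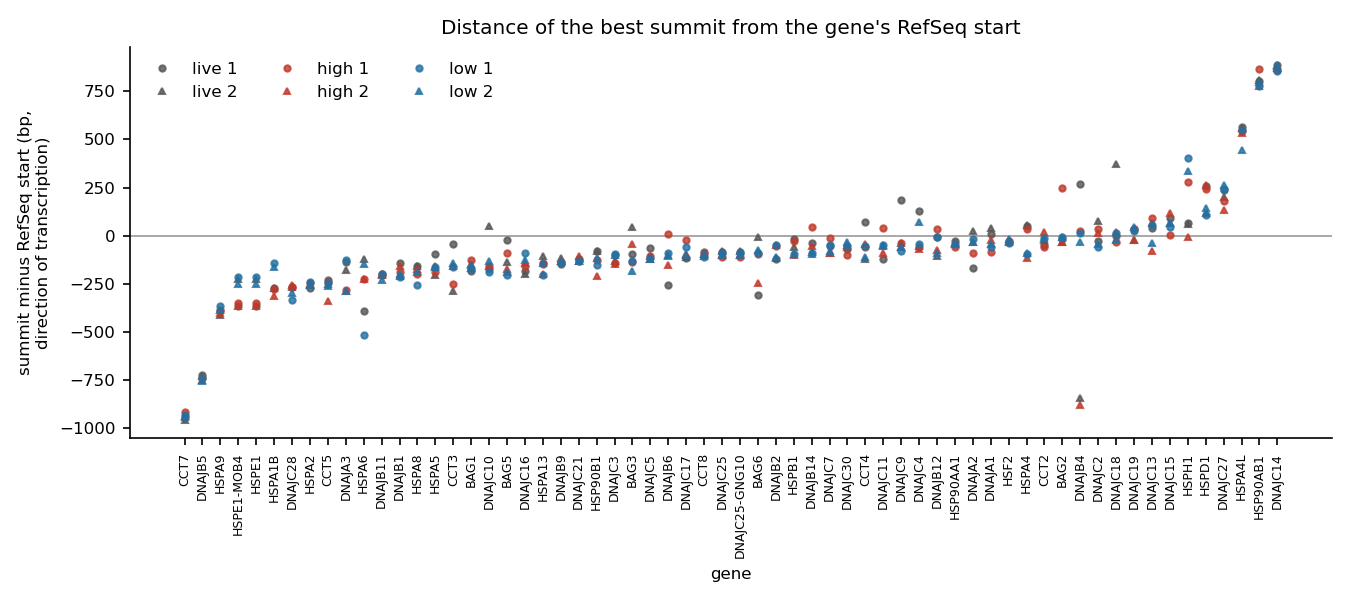
Distance in bp of the best summit from the RefSeq start (vertical, negative upstream) in each library for the 62 genes (horizontal) with such a summit in all 6 lists. Most points lie between -250 bp and the start, and those of HSP90AB1 lie 775 to 867 bp downstream.

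Between high and low H3K27ac cells, the number of open chaperone genes did not separate. High 1 and high 2 had 67 and 70, low 1 and low 2 had 68 and 71, and live 1 and live 2 had 69 and 72, so the groups overlapped. As a share this was 73.7% ± 2.28 (SD, n = 2) in high and 74.7% ± 2.28 (SD, n = 2) in low, a difference of -1.08 percentage points (exact permutation test, two-sided p = 0.667, where 2 against 2 cannot go below 0.33). The shares of all genes open were 45% and 48.1% in high, 50.3% and 50.2% in low, and 49.7% and 49.6% in live. HSF2BP was the only chaperone gene that both low libraries and neither high library held open, a pattern of 1.54% of all genes. Its region ranked 27511 and 31874 in live, was absent in high 1, ranked 31509 in high 2, and 15782 and 22189 in low. The reverse pattern was seen at 0 chaperone genes and at 0.246% of all genes.

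Rank shifts were then tested over the 8406 genes with an end summit in all 6 lists, 67 of them chaperone genes, with limma on the normal scores of each gene's rank among these genes. The shortest list, high 1, limits this set, and without it the set would hold 10068 genes, 71 of them chaperone genes. A positive difference means a better rank in the first group. Between high and low, 0 of the 67 genes passed an adjusted p of 0.05, as did 0% of all genes in either direction, and 4 of the 67 had an unadjusted p under 0.05, against 16.4% of all genes. CCT2, named after its values were seen, came nearest. Its ranks were 1265 and 1349 in high, 4466 and 4749 in low, and 3286 and 2711 in live, and the groups did not overlap, but the difference of 1.04 ± 0.272 (SE) had an adjusted p of 0.192 in limma. Both high libraries ranked ahead of both low ones for 26 of the 67 genes, a pattern of 25.4% of all genes, and both low ahead of both high for 10, a pattern of 23.4%. The median difference was 0.180 over the chaperone genes and 0.0214 over all genes. Without high 2, the high group is the single library high 1, assumed to vary like the other groups. The difference at CCT2 was then 1.09, and the median over the 67 chaperone genes was 0.214. Calls in that setting rest on 1 high library and are not listed. Promoter base composition moved with this comparison: the Spearman correlation of the difference with GC content was -0.226 over 7061 genes and -0.261 over the 61 chaperone genes among them, across genes that share the same 6 libraries. Its part in the differences was not tested.

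Between sorted and live cells, open chaperone genes again did not separate in number: 74.2% ± 1.96 (SD, n = 4) against 75.8% ± 2.28 (SD, n = 2), a difference of -1.61 points (exact permutation test, two-sided p = 0.533, where 4 against 2 cannot go below 0.0667). No chaperone gene was open in both live and no sorted library (0.366% of all genes), or in all 4 sorted and no live library (0.314%).

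The order of the regions did differ, over all genes as over the chaperone genes. At an adjusted p of 0.05 in limma, 10 genes ranked better in the sorted cells and 2 ranked worse, against 7.45% and 6.13% of all 8406 genes. In regions these were 8 and 1. The 12 genes were 17.9% of the 67, beside 1141 called among all 8406 genes. With 1 gene kept per region, 9 of 64 chaperone genes passed, beside 964 of 7197 genes in all, which is a similar share. The genes with the better rank in sorted cells were the chaperonins CCT8, HSPD1, HSPE1 and HSPE1-MOB4, the HSP70 genes HSPA8 and HSPA9, HSP90B1, BAG1, DNAJC5 and DNAJC21, and those with the worse rank were DNAJC25 and its readthrough gene.

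DNAJC5 (cysteine string protein, chr20:63895126-63936011, plus strand), a chaperone of secretory vesicles, ranked 8225 and 7134 among the 8406 genes in live, 6179 and 4891 in high, and 3265 and 2783 in low. Its difference was 1.497 ± 0.296 (SE), with an adjusted p of 0.00792. Its region was weak in live 1, at rank 27873 of that list, and was not called open there. The fit takes only genes that the shorter sorted lists also hold, which favours a better sorted rank for a gene weak in live. With absent genes kept and tied at the last rank, the DNAJC5 difference was 0.957 (adjusted p = 0.00978 in limma). It still passed, but its size is uncertain. BAG1 (chr9:33252471-33264708, minus strand) ranked 2925.5 and 2557.5 in live and between 126.5 and 726.5 in the 4 sorted libraries, a difference of 1.38 ± 0.263 (adjusted p = 0.00711). CCT8 (chr21:29056326-29073648, minus strand) ranked 5326 and 4907 in live and between 581 and 2084 in sorted, a difference of 1.28 ± 0.241 (adjusted p = 0.00683). At all 3 genes the live libraries were the last 2.

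For HSP90B1 (chr12:103930410-103947926, plus strand) the gene rank was 4338 and 3896 in live and 1005 to 1552 in sorted, a difference of 1.01 ± 0.240 (adjusted p = 0.0177). For DNAJC21 the difference was 0.874 ± 0.255 (adjusted p = 0.0387), and for the region of HSPD1 and HSPE1 it was 0.873 ± 0.248 (adjusted p = 0.0352). HSPA9 differed by 0.826 ± 0.253 (adjusted p = 0.0455) and HSPA8 by 0.766 ± 0.236 (adjusted p = 0.0467), both near the threshold. On the scale of the log2 score, quantile normalised, the calls of DNAJC21 (adjusted p = 0.135), HSPD1 and HSPE1 with the readthrough gene (0.0968), HSPA9 (0.0746) and HSPA8 (0.114) were lost. DNAJC25 (chr9:111631334-111654345, plus strand) ranked 161.5 and 215.5 in live and 1156.5 to 2498.5 in sorted, a difference of -1.24 ± 0.238 (adjusted p = 0.00711).

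**Figure D4:**
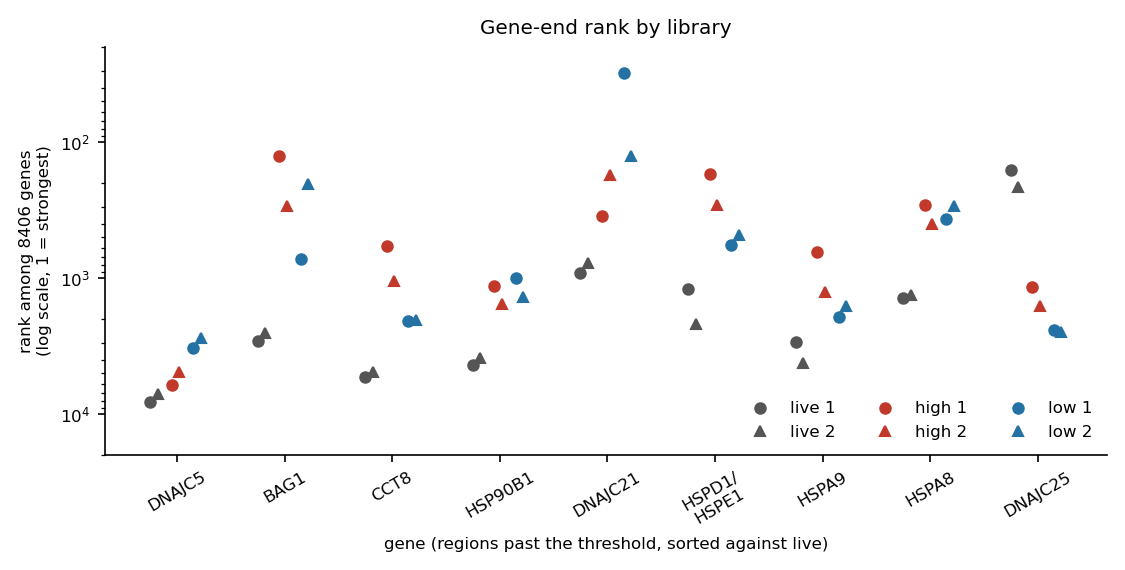
Rank of each gene's best end region among the 8406 genes (vertical, log scale, best at the top) in each library, for the 9 regions past the threshold between sorted and live; grey is live, red high and blue low. The live points lie below the sorted ones at every gene but DNAJC25, where they lie above.

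The other chaperone genes did not pass. HSP90AA1 differed by 0.518 ± 0.256 (adjusted p = 0.180), HSP90AB1 by 0.678 ± 0.238 (adjusted p = 0.0741), BAG3 by 0.648 ± 0.258 (adjusted p = 0.106) and HSPA1B by -0.410 ± 0.262 (adjusted p = 0.301). All 10 chaperonins in the fit, on 8 regions, had a difference above 0, with a median of 0.413 over the regions and 0.578 over the genes, CCT2 being lowest at 0.00572 ± 0.236. So did all 3 HSP90 genes, with a median of 0.678. Of the 23 DNAJC genes in the fit 11 did, with a median of -0.0137. Over all 67 genes 42 differences were above 0 (62.7%) and the median was 0.239, against 47.8% and -0.0307 over all genes. All 4 sorted libraries ranked ahead of both live ones for 22 of the 67 genes, a pattern of 19% of all genes, and both live ones ahead of all 4 sorted for 6, a pattern of 18.1%. At an unadjusted p under 0.05 the share was 32.8% of the chaperone genes and 31.7% of all genes.

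**Figure D5:**
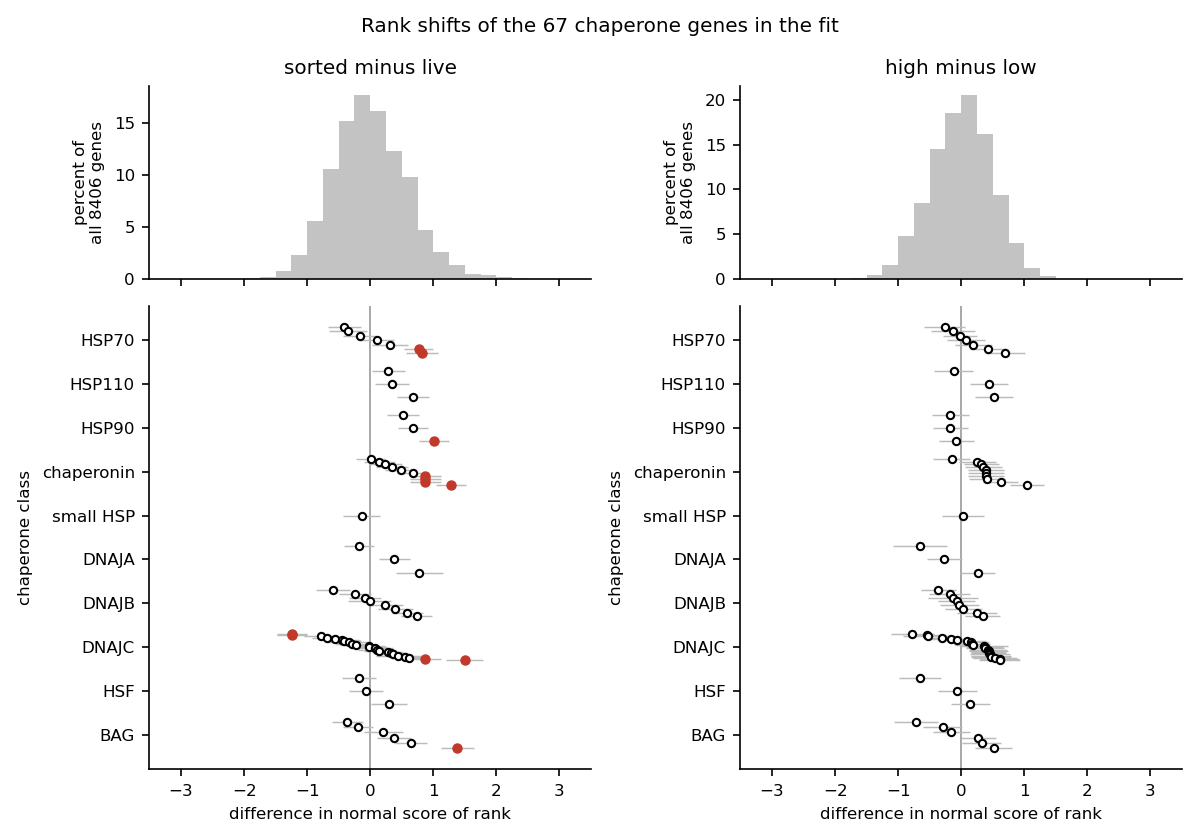
Difference in normal score of rank (horizontal) between sorted and live (left) and high and low (right): the distribution over all 8406 genes above, and the 67 chaperone genes by class below with their standard errors, filled where the adjusted p was under 0.05. All chaperonin points lie above 0 in sorted minus live, and no point is filled in high minus low.

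Leaving out live 1 or live 2 leaves a single live library, which is then assumed to vary like the other groups, and 0 of the 67 genes passed in limma (9 and 19 of all genes), with 15 and 13 at an unadjusted p under 0.05. The differences without live 1 and without live 2 were 1.32 and 1.44 at BAG1, 1.22 and 1.34 at CCT8, and 0.946 and 1.08 at HSP90B1, while at DNAJC5 they were 1.00 and 1.99 and at HSPD1 1.08 and 0.662. Without low 1 and without low 2, which leaves a single low library, the median difference over the 67 genes was 0.177 and 0.275. Fewer genes then passed than with all 6 libraries. None of the 12 differences changed sign in any of these fits. Promoter base composition moved with this shift too: over the same genes the Spearman correlation with GC content was 0.148 in all and 0.272 in the chaperone genes. The median GC content was 66.5% in the 10 genes with the better rank, where HSPE1 and HSPE1-MOB4 have the same window. It was 64.5% in the 60 windows whose start was open in all 6 libraries and 63.8% in all 82 chaperone windows. The part of base composition in the result was not tested.

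Regions inside the genes were few. A region over 1000 bp from both ends was among the best in all 6 libraries at 11 of the 93 genes, against 17.3% of all genes, and in at least 1 library at 26, against 34.5%. The number of genes with one was 19 and 17 in live, 16 and 18 in high, and 19 and 17 in low, a difference of -1.08 points between high and low (exact permutation test, two-sided p = 0.667). At HSPA2, DNAJB1 and DNAJC14 one of these regions lay within 1000 bp of the RefSeq start in all 6 libraries, with median summits at -252, -193.5 and 873.5 bp from it. The most were in DNAJC15, a mitochondrial DNAJ protein, with 17 regions summed over the 6 libraries. They lay 22028 bp from its start in 6 libraries, 51459 bp in 5 and 71529 bp in 6, at ranks from 6796 to 23399. DNAJC1 had 15, DNAJB1 13, DNAJB6 12, and DNAJC18 and HSPA12A 10 each. In HSPA12A a region 1515 bp from the start was present in all 6 libraries, although its ends were open in 1. Another of its body regions, 9 bp from its RefSeq start, was among the best in low 2 only.

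The partners of these chaperones, a list of 54 further genes chosen with earlier results of these data known, were mostly open as well. Of the 53 found, 41 (77.4%) were open in all 6 libraries and 5 (9.43%) in none, the small heat shock genes CRYAA and CRYAB among them, against the 40.6% and 45% of all genes given above. In the fit, 43 of them were tested between sorted and live. PTGES3 (p23, an HSP90 partner), HSPBP1 (a nucleotide release factor of HSP70) and STUB1 (the ubiquitin ligase CHIP) had a better rank in sorted cells, by 1.40 ± 0.25, 1.01 ± 0.25 and 1.65 ± 0.286 (SE), and TBCE, a tubulin folding cofactor, had a worse one, by -1.21 ± 0.284. These calls were 6.98% and 2.33% of the 43, against 7.45% and 6.13% of all genes. STUB1 ranked 8394 and 8401 of the 8406 genes in live, at the end of the order. A gene so weak in live enters the fit only where the shorter sorted lists hold it, which favours a better rank there. The size of the STUB1 difference is therefore uncertain. Between high and low 0 of the 43 passed in limma, with 8 (18.6%) at an unadjusted p under 0.05, near the 16.4% of all genes.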

How the data were processed

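The 6 deposited lists hold single-base summits and a score, read as the −log10 of a p-value or q-value from the authors' peak caller, and used here only to rank summits within a list. The submitters' processing notes name Bowtie2, Picard and MACS2 beside bcl2fastq and FastQC, without versions, and the builds hg38 and hg19; contig names place the lists on hg38. The settings, any Tn5 shift and any duplicate removal were not given in the sources used here. The staining protocol writes the antibody's target as H3K37ac, which was read as H3K27ac. Lists were made per library, and no counts were used, so depth is unknown.

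Summits within 250 bp were chained into 100513 regions and ranked in each library (ties by a seeded draw). Gene positions, starts and promoter windows came from RefSeq tables for GRCh38.p14. Shares were compared with exact permutation tests over libraries. Ranks were converted to normal scores over the 8406 genes listed at an end in all 6 libraries and fitted with limma 3.58.1 in R 4.3.3 (lmFit, eBayes, all 6 libraries, Benjamini-Hochberg over all these genes), after a test on simulated data; Python 3.11.15, pandas 2.3.3 and scipy 1.17.1 did the rest. Libraries with the same replicate number did not deviate together (correlations 0.0145, 0.0143 and 0.0863), so the numbers were not used as pairs. Genes, classes and lists were chosen with earlier results of these data known. Named with values were a textbook core, the 3 best-ranked genes of each class, genes that separate groups by presence, the 5 with most body regions, and those past the threshold; others are named as such. Alternatives covered list length, window, chaining, the gene start alone, absent genes tied at the last rank, scale, block and each library left out.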

Additional observations from a re-analysis of the deposited data

How the results depend on the processing

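The count of chaperone genes open in all 6 libraries was 64 and stayed within 1.5 times of that under every alternative run, from 46 with the best 12813 regions to 67 with full lists or a window of 2500 bp. The exact tests of the shares cannot reach 0.05 in this design, so their p-values show nothing of stability, and the differences moved and in part changed sign. High minus low in open genes ranged from -2.69 to 0.538 points with a library left out, with 0.538 both without high 1 and without low 2. It was -6.45 with the best 12813 regions. Sorted minus live was 5.38 points with the best 12813 regions, 0.269 with a window of 500 bp and -5.11 with full lists, and high minus low in genes with a body region was 2.15 with the best 12813 regions and -7.53 with full lists. The count of genes that both low libraries and neither high library held open, 1, was 0 with full lists and 1 to 3 with a library left out, and the reverse count, 0, was 0 to 2. The count of rank shifts between sorted and live, 12, was 6 on the log2 score after quantile normalisation, 11 with a replicate block (HSPA8 no longer passed) and, in alternatives chosen after seeing the data, 15 with a trended, robust prior and 9 with 1 gene per region. It was 0 to 18 with a library left out. Between high and low the count was 0 under all alternatives, the replicate block included, but ranged from 0 to 5 with a library left out, 5 being without high 2. For the 12 shifted genes and CCT2, 133 of 179 repeats kept their side of the threshold, 45 lost it, 1 gained it and 0 changed sign; 24 of the losses were without a live library. With 2 libraries a group and no read counts, differences in regions near the end of a list cannot be resolved.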
